A study of Mus musculus with 6 samples.

Results

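The imprinted domains of distal mouse chromosome 7 were represented by 9 genes, found by name in the deposited RNA-seq table: *H19*, *Igf2*, *Kcnq1ot1*, *Kcnq1*, *Phlda2*, *Slc22a18*, *Ascl2*, *Cd81* and *Tssc4*. All 9 were among the 38258 genes listed, and all 9 reached the mean of 10 normalized counts across 6 libraries that was required for a test, as did 23006 genes in all. The libraries were made from epidermal cells of the back skin of newborn mice (postnatal day 0), sorted for high α6-integrin together with EpCAM and Sca1 to obtain cells of the interfollicular epidermis. In 3 libraries the genotype is labelled Eed -/- Ring1a-/- Ring1b-/-, called here labelled triple knockout, and 3 are labelled Control with no further genotype. Polycomb repressive complex 2 needs Eed to methylate histone H3, and Ring1a or Ring1b gives Polycomb repressive complex 1 its histone H2A ubiquitin ligase activity. The sources used here name neither a Cre driver nor the animal behind each library, and each p-value here rests on the spread between libraries alone, which may be technical.

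An imprinted gene is transcribed mainly from the copy inherited from a particular parent. In the *H19*-*Igf2* domain a control region that is methylated on the paternal chromosome lets shared enhancers drive the noncoding RNA H19 from the maternal copy and the growth factor gene *Igf2* from the paternal copy. In the neighbouring *Kcnq1* domain the long antisense RNA Kcnq1ot1 is made from the paternal chromosome and silences genes on both sides of it in cis, and in mouse placenta this silencing involves Polycomb complexes. The RNA values do not separate the parental copies, so a change below is one of total RNA of a gene. Whether each gene is imprinted in these cells was not tested. In such bulk samples, fewer cells of a type and less RNA per cell cannot be told apart.

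Promoter windows of the genes for which the groups separated in the *Kcnq1* domain are shown here because these genes changed in opposite directions from windows of like CpG content. RefSeq windows (GRCm38.p6, 250 bases before to 50 after an annotated start) were available for 7 of the 9 genes, all but *H19* and *Kcnq1*. They are written 5′ to 3′ on the strand of the gene, with each CpG in capitals. The first 3 genes were higher in the labelled triple knockout libraries and the last was lower.
Cd81 (chr7:143052500-143052799, plus strand): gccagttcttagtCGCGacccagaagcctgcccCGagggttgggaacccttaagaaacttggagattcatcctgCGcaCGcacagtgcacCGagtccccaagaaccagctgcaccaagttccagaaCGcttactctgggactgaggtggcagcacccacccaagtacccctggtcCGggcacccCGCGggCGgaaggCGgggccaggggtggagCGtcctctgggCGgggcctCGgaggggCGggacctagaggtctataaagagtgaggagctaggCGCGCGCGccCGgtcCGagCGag
Tssc4 (chr7:143069118-143069417, plus strand): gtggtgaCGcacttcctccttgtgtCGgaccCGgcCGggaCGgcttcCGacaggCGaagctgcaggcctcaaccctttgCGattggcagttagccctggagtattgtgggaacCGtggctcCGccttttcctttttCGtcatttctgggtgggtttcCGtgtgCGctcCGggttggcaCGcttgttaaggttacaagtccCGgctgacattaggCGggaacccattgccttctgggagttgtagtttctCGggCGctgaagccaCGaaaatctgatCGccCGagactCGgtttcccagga
Phlda2 (chr7:143502475-143502774, minus strand): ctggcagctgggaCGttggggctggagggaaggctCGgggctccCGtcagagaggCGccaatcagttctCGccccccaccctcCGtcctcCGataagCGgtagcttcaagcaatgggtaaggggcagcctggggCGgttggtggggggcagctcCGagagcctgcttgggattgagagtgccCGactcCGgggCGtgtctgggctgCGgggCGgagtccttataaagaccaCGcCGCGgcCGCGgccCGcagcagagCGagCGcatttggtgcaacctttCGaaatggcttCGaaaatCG
Ascl2 (chr7:142969215-142969514, minus strand): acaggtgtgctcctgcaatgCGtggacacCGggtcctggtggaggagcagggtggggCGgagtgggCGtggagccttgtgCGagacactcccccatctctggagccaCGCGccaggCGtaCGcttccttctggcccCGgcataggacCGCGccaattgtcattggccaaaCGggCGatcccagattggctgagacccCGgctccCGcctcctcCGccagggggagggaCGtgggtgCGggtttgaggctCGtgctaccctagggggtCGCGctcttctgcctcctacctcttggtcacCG

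The windows of *Cd81*, *Tssc4* and *Ascl2* held 23 CpGs each, and that of *Phlda2* held 26. The median over 32851 RefSeq windows was 7 CpGs, and 21.5% of them held at least 23 and 16.9% at least 26. *Ascl2*, which fell, had as many CpGs as 2 of the genes that rose. The windows of *Slc22a18* and *Kcnq1ot1*, which did not pass the test below, held 2 and 9 CpGs. *Igf2* has 4 annotated starts with 2, 14, 24 and 7 CpGs, which the table does not separate. The letters TATAAA, searched on both strands, occurred in the windows of *Cd81* and *Phlda2* and in 13.6% of all windows. They began at base 257 for *Cd81*, after the annotated start, and at base 221 for *Phlda2*, before it.

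H19 RNA also carries the precursor of a microRNA, shown because its source fell in the labelled triple knockout libraries while the microRNA itself was not measured. Both mature products lie wholly within *H19* exons on the minus strand (GRCm38.p6), and their seeds, bases 2 to 8, are in capitals.
mmu-miR-675-5p (chr7:142577112-142577133): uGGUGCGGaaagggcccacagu
mmu-miR-675-3p (chr7:142577078-142577099): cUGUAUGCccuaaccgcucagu

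The deposited normalized counts of a library summed to between 21896285 and 29805729. The most frequent low value of a library, taken as the value of 1 read, was 0.716 to 1.31 normalized counts. The targeted genes did not all follow the labels. *Ring1* (Ring1a) was higher in the labelled triple knockout libraries (67.7, 104 and 112 against 11.8, 8.72 and 23.1 in controls), *Eed* was lower (381, 604 and 441 against 714, 1015 and 778), and *Rnf2* (Ring1b) overlapped (783, 922 and 694 against 739, 875 and 1288). These values sum over all transcripts of a gene, so RNA from outside a deleted part checks nothing, and directions below follow the labels. The *Eed* call (limma adjusted p = 0.0144) was lost without labelled triple knockout 1 (limma adjusted p = 0.0615) or 3 (0.0546) and without control 2 (0.0525). All 10 keratinocyte markers were detected, with summed normalized counts of 201870 to 215175 in the labelled triple knockout libraries and 350184 to 462211 in controls. The sums of 10 fibroblast markers were 11474, 15697 and 17246 in the labelled triple knockout libraries and 8592, 13302 and 32009 in controls 1, 2 and 3, so control 3 stood apart from the other controls in these markers. Control 3 also had the highest control sums of leukocyte (2534 against 1005 and 1197) and adipocyte markers (1825 against 422 and 562). Summed melanocyte markers were 1227 to 1857 in the labelled triple knockout libraries and 402 to 579 in controls, with 7 of 8 higher, and summed Schwann cell markers were 399 to 527 and 67.9 to 152, with 3 of 5 tested higher. Of the keratinocyte markers 2 were higher and 7 lower. The sorting markers were among them at the RNA level. *Epcam* (log2 change 0.91, limma adjusted p = 0.00578) and *Ly6a*, which encodes Sca1 (3.06, limma adjusted p = 2.64e-05), were the 2 higher. *Itga6*, which encodes α6-integrin, was lower (log2 change −1.60, limma adjusted p = 0.000133). The part of the cell types above, and of the sorting markers, in the results below was not tested.

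Across the 9 genes, *Igf2*, *Phlda2*, *Cd81* and *Tssc4* were higher in the labelled triple knockout libraries, *H19* and *Ascl2* were lower, and *Kcnq1ot1*, *Kcnq1* and *Slc22a18* did not pass (limma on log2 of the normalized count + 1, adjusted p below 0.05 over all 23006 genes). Of all genes tested, 35.8% were called, 20.5% as higher and 15.3% as lower, so a call alone is common in this comparison. Higher genes made up 57.3% of the calls, and 45.6% after quantile normalization. The groups did not overlap for 6 of the 9 genes, against 49.1% of all genes tested. The median log2 change of the 9 genes was 1.10, beside 0.01 over all genes tested. Exact two-sided permutation tests over the 20 assignments of libraries gave p = 0.1 for each of the 6 called genes, the smallest p that 3 against 3 libraries allow.

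**Figure D1:**
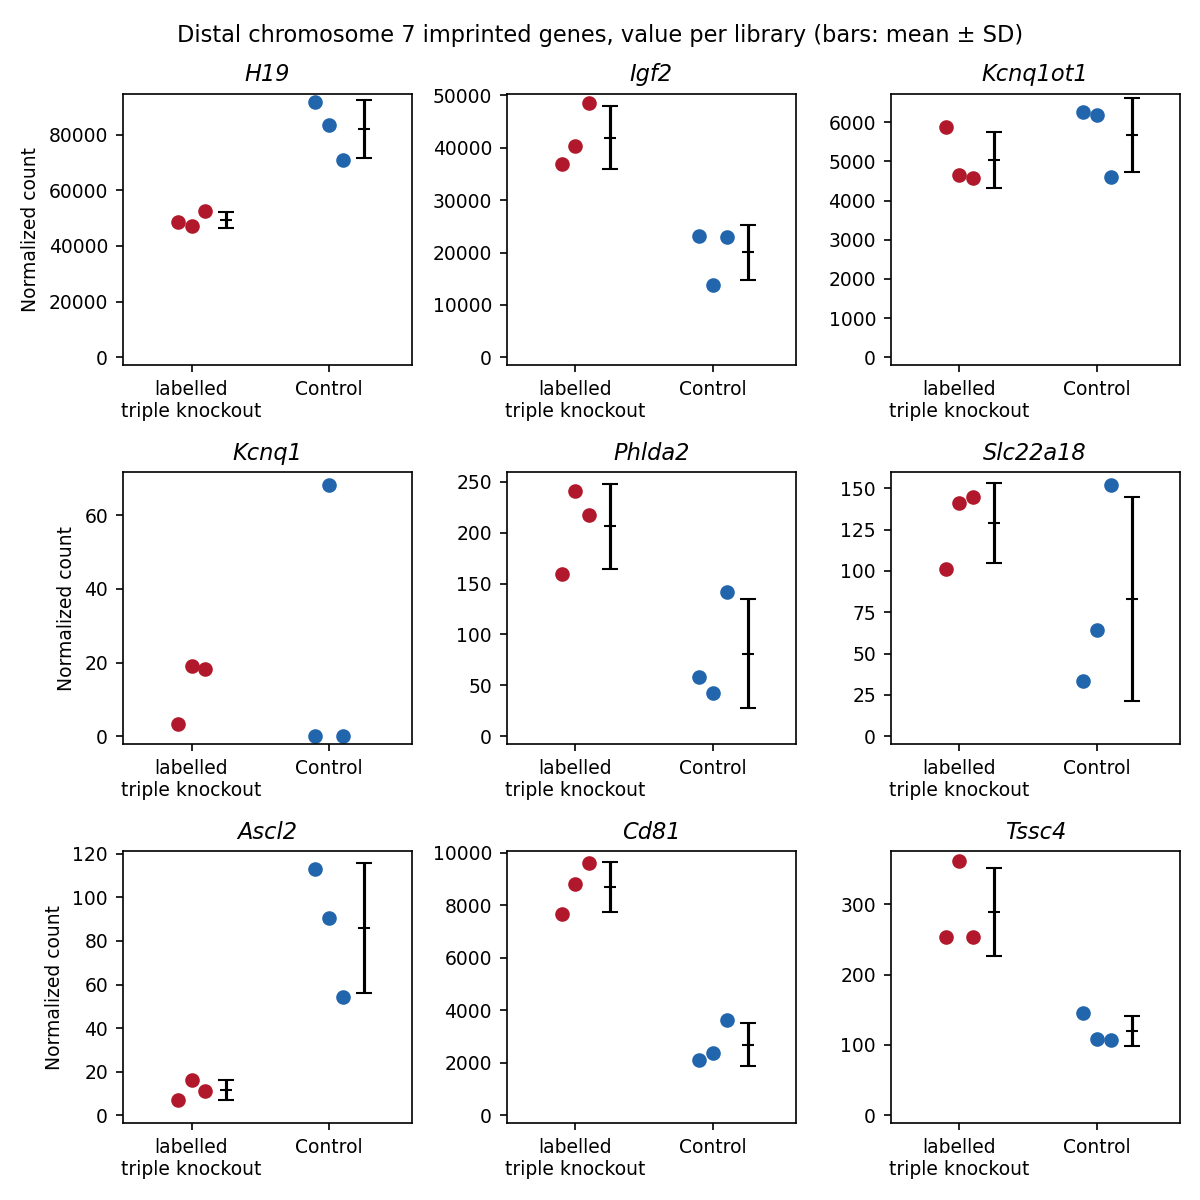
Normalized count of each of the 9 genes in each library, with labelled triple knockout libraries in red on the left and control libraries in blue on the right of each panel. Bars are mean ± SD of 3 libraries and are left out for *Kcnq1*, which is listed at 0 in 2 controls. The groups separate for *H19*, *Igf2*, *Phlda2*, *Ascl2*, *Cd81* and *Tssc4* and overlap for the other 3 genes.

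*H19* (ENSMUSG00000000031.16, GRCm38 chr7:142575529-142578143, minus strand), the maternally expressed noncoding RNA, had normalized counts of 48499, 47240 and 52642 in the labelled triple knockout libraries and 91758, 83475 and 70974 in controls. All 3 labelled triple knockout libraries lay below every control. The means were 49460 ± 2827 and 82069 ± 10463 (SD, n = 3 each), a log2 change of −0.72 ± 0.13 SE (limma adjusted p = 0.00227). It was among the most abundant RNAs of these cells. Per kilobase of mean transcript length it ranked 20th in the labelled triple knockout libraries and 15th in controls among 23001 genes with a length.

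*Igf2* (ENSMUSG00000048583.16, chr7:142650766-142666816, minus strand), which encodes insulin-like growth factor 2, a fetal growth factor, changed the other way. Its normalized counts were 36903, 40279 and 48642 in the labelled triple knockout libraries and 23248, 13885 and 22954 in controls. The lowest labelled triple knockout library stood above the highest control, and control 2 was below the other controls. The means were 41941 ± 6043 and 20029 ± 5323 (SD, n = 3 each), a log2 change of 1.10 ± 0.21 SE (limma adjusted p = 0.00299). Without control 3, the library with the highest fibroblast sum, the log2 change of *Igf2* was 1.21 (limma adjusted p = 0.0024) and that of *H19* was −0.82 (limma adjusted p = 9.6e-05). Without control 2 they were 0.85 (limma adjusted p = 0.00303) and −0.71 (0.0071). After correction for GC content and length, that of *Igf2* was 0.72 (limma adjusted p = 0.0244). The antisense transcript *Igf2os*, which shares 98 exonic bases with *Igf2* on the other strand, was also higher, with 165, 182 and 230 in the labelled triple knockout libraries and 112, 93.7 and 37.7 in controls (log2 change 1.36 ± 0.38 SE, limma adjusted p = 0.0207). That call was lost without labelled triple knockout 2 (limma adjusted p = 0.0583) or 3 (0.0802) and after correction for GC content and length (0.141). The strand setting was not given in the sources used here, so reads of the shared bases cannot be told apart. The predicted gene *Gm49394* on the same strand, which shares 62.8% of the exonic bases of *Igf2*, averaged 1.83 over the 6 libraries.

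The balance between the 2 RNAs was lower in the labelled triple knockout libraries. The ratio of *H19* to *Igf2* normalized counts was 1.31, 1.17 and 1.08 in these libraries and 3.95, 6.01 and 3.09 in controls, with no overlap. The log2 ratio averaged 0.25 ± 0.14 and 2.07 ± 0.49 (SD, n = 3 each), a difference of −1.82 (exact two-sided permutation p = 0.1, the smallest possible). Because the ratio is formed within a library, scaling factors between libraries cancel in it except for the pseudocount.

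**Figure D2:**
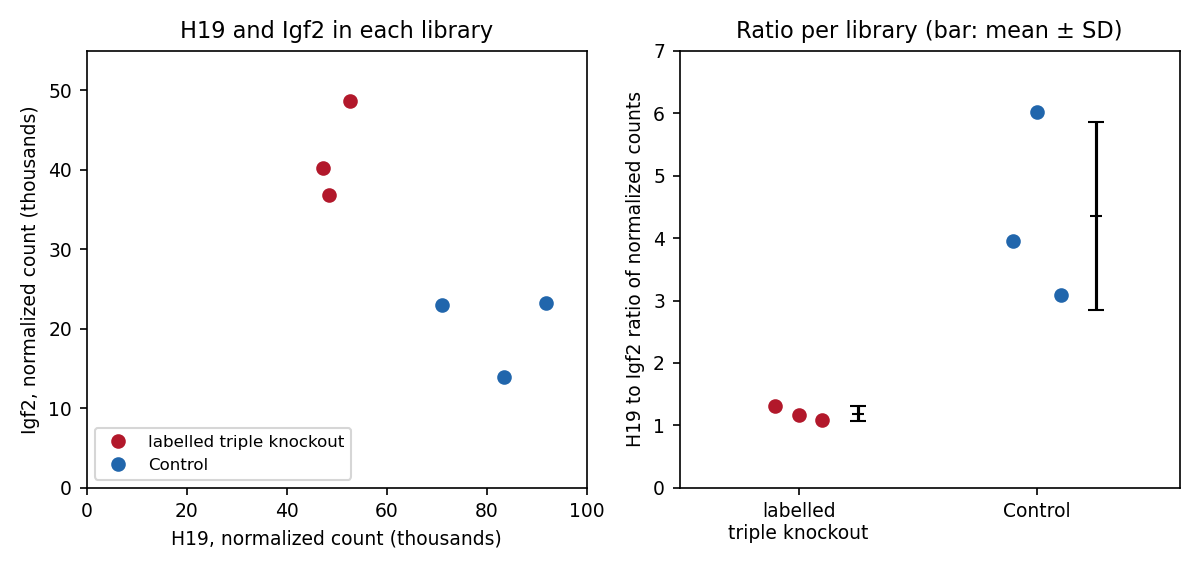
Left, *Igf2* against *H19* normalized counts, scaled as printed on the axes, each point a library. Right, the ratio of *H19* to *Igf2* per library with mean ± SD, labelled triple knockout left of control. The labelled triple knockout libraries sit at ratios of 1.08 to 1.31 and the controls at 3.09 to 6.01.

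*Kcnq1ot1* (ENSMUSG00000101609.2, chr7:143203458-143296549, minus strand), the paternally expressed silencing RNA of the second domain, was detected in every library and did not pass the test. Its normalized counts were 5867, 4661 and 4585 in the labelled triple knockout libraries and 6249, 6186 and 4588 in controls, so the groups overlapped. The log2 change was −0.17 ± 0.16 SE (limma adjusted p = 0.463). Its annotated transcript of 93092 bases lies within the *Kcnq1* gene on the opposite strand, and without a known strand setting RNA of the strands cannot be told apart there. Per kilobase of this length it averaged 54.1 in the labelled triple knockout libraries and 61.0 in controls.

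*Kcnq1* (ENSMUSG00000009545.14, chr7:143106362-143427042, plus strand), a voltage-gated potassium channel subunit, was barely detected. It was listed at 3.25, 18.97 and 18.3 in the labelled triple knockout libraries and at 0, 68.2 and 0 in controls. The highest and lowest values were both in controls. The log2 change was 1.52 ± 1.53 SE (limma adjusted p = 0.478), while the arithmetic means ran the other way, at 13.5 in the labelled triple knockout libraries and 22.7 in controls, so no direction is given for this gene. Without control 2 the log2 change was 3.56 and passed (limma adjusted p = 0.0283), with both remaining controls listed at 0. It shares 121 exonic bases with *Kcnq1ot1* on the other strand, whose mean over the 6 libraries was 5356.

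Of the 9 genes, those of the *Kcnq1* domain beyond the antisense RNA, on the side away from *H19*, were *Slc22a18* and *Phlda2*. The neighbour *Cdkn1c*, described below, also lies there. *Phlda2* (ENSMUSG00000010760.5, chr7:143501545-143503150, minus strand) encodes a small pleckstrin-homology domain protein that restrains placental growth in mice. It had 160, 241 and 218 normalized counts in the labelled triple knockout libraries and 58.7, 42.6 and 142 in controls. Control 3 came close to the lowest labelled triple knockout library without reaching it. The log2 change was 1.505 ± 0.41 SE (limma adjusted p = 0.0177). The call was lost without labelled triple knockout 2 (log2 change 1.38, limma adjusted p = 0.0696) or 3 (1.46, limma adjusted p = 0.0618) and without control 1 (1.37, limma adjusted p = 0.0552) or 2 (1.14, limma adjusted p = 0.0556), and the log2 change was 2.001 without control 3 (limma adjusted p = 0.00017).

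*Slc22a18* (ENSMUSG00000000154.16, chr7:143473736-143499334, plus strand), a member of the organic cation transporter family, did not pass. Its normalized counts were 101, 141 and 145 in the labelled triple knockout libraries and 33.2, 64.4 and 152 in controls. Control 3 was the highest of all 6 libraries, while the other controls lay below every labelled triple knockout library. The log2 change was 0.88 ± 0.47 SE (limma adjusted p = 0.183) and, without control 3, 1.44 (limma adjusted p = 0.00465). For both genes control 3 was the highest control, as it was for the fibroblast, leukocyte and adipocyte marker sums; the part of those cells in the result was not tested.

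On the side towards *H19*, *Cd81* and *Tssc4* were higher and *Ascl2* was lower. *Cd81* (ENSMUSG00000037706.17, chr7:143052739-143067934, plus strand) encodes a tetraspanin of the cell surface. It had 7677, 8815 and 9602 normalized counts in the labelled triple knockout libraries and 2114, 2356 and 3619 in controls. Every labelled triple knockout library stood far above the highest control, which was control 3. The log2 change of 1.72 ± 0.20 SE (limma adjusted p = 0.000198) ranged from 1.57 to 1.96 over all alternatives. The gene *R74862* on the other strand shares 104 exonic bases with *Cd81* and averaged 132 over the 6 libraries, far below *Cd81*.

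*Tssc4* (ENSMUSG00000045752.13, chr7:143069249-143071093, plus strand) encodes a protein known, from human cells, to act in assembly of the spliceosomal U5 particle. It had 254, 362 and 253 normalized counts in the labelled triple knockout libraries and 145, 108 and 107 in controls. The groups did not overlap, and the log2 change was 1.26 ± 0.23 SE (limma adjusted p = 0.00243). When GC content and transcript length were regressed out, the log2 change was 0.64 and did not pass (limma adjusted p = 0.0575). *Tssc4* shares 220 exonic bases (11.9%) with *Trpm5* on the other strand, which had 12.8, 13.9 and 22.5 in the labelled triple knockout libraries and 0, 6.33 and 5.61 in controls.

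*Ascl2* (ENSMUSG00000009248.6, chr7:142966829-142969264, minus strand), a basic helix-loop-helix transcription factor needed in mouse placenta and in intestinal stem cells, had the largest change in size among the 9 genes. Its normalized counts were 6.96, 16.4 and 11.2 in the labelled triple knockout libraries and 113, 90.6 and 54.1 in controls. The highest labelled triple knockout library stood well below the lowest control. The log2 change was −2.80 ± 0.41 SE (limma adjusted p = 0.000703), which understates the change of a gene this low. Of the 9 trophoblast markers fixed as a list, 8 were in the table and 4 were tested, of which *Cdx2*, *Elf5* and *Esx1* were higher and *Gcm1* did not pass. The summed normalized counts of the 8 markers were 986, 976 and 825 in the labelled triple knockout libraries and 73.0, 85.4 and 72.3 in controls, without overlap. Most of each sum was *Elf5*, at 719, 683 and 582 in the labelled triple knockout libraries and 49.3, 64.2 and 39.8 in controls. *Prl2c2* was at most 3.84, in control 2. *Hand1*, too low for a test, was at 8.33, 3.97 and 6.70 in the labelled triple knockout libraries and 0, 0 and 0.997 in controls. *Tpbpa* and *Plac1*, which define placental cells, were listed at 0 in all labelled triple knockout libraries and reached at most 4.06 and 3.39 in controls. The part of such cells in the *Ascl2* result was not tested.

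Per kilobase of mean transcript length, the order of the mean levels in the labelled triple knockout libraries was *H19* (39730), *Igf2* (20970), *Cd81* (8865), *Phlda2* (414), *Tssc4* (258), *Slc22a18* (104), *Kcnq1ot1* (54.1), *Kcnq1* (15.7) and *Ascl2* (9.53). In controls it was *H19* (65920), *Igf2* (10020), *Cd81* (2748), *Phlda2* (163), *Tssc4* (107), *Ascl2* (71.0), *Slc22a18* (67.3), *Kcnq1ot1* (61.0) and last *Kcnq1*, at 0, 79.5 and 0 in the 3 libraries. *Ascl2* was thus last in the labelled triple knockout libraries and in the middle of the order in controls. Neighbours in these orders whose libraries overlapped were *Phlda2* with *Tssc4* and *Kcnq1* with *Ascl2* in the labelled triple knockout libraries. In controls they were *Phlda2* with *Tssc4*, *Ascl2* with *Slc22a18*, *Slc22a18* with *Kcnq1ot1*, and *Kcnq1ot1* with *Kcnq1*.

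**Figure D3:**
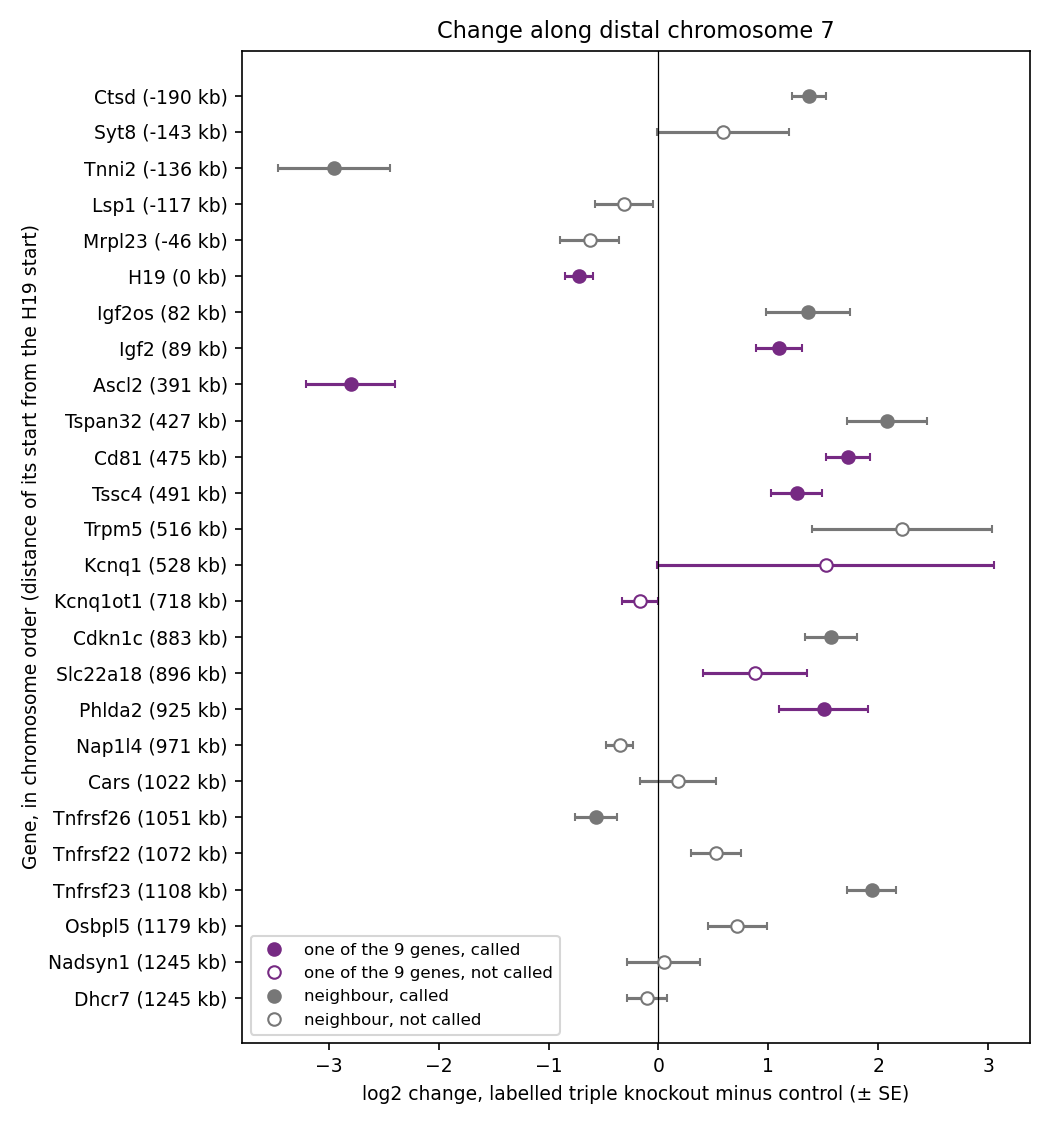
Log2 change (labelled triple knockout minus control, ± SE) of the 9 genes in purple and 17 tested neighbours in grey, in chromosome order, with the distance of each start from the *H19* start. Filled points passed the test. *Cd81*, *Tssc4*, *Cdkn1c* and *Phlda2* lie to the right of 0, *Ascl2* and *H19* to the left, and *Kcnq1ot1* near 0.

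Genes around the 9 were called in both directions. Of 21 listed neighbours, 17 were tested. The test called 5 higher and 2 lower and left 10 uncalled, where 20.5% of all genes tested were called higher and 15.3% lower. Their median log2 change was 0.52, beside 0.01 over all genes. *Cdkn1c*, a maternally expressed cell cycle inhibitor of the *Kcnq1* domain, had 1183, 1489 and 1532 normalized counts in the labelled triple knockout libraries and 425, 357 and 673 in controls (log2 change 1.57 ± 0.23 SE, limma adjusted p = 0.000819). *Tspan32*, another tetraspanin, lies between *Ascl2* and *Cd81* and had 54.3, 81.0 and 67.4 in the labelled triple knockout libraries and 14.9, 9.75 and 22.9 in controls (log2 change 2.08 ± 0.37 SE, limma adjusted p = 0.00204). Both rose with *Cd81*, *Tssc4* and *Phlda2*, and the groups did not overlap for either.

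Further out, genes changed in both directions. *Tnfrsf23*, a decoy receptor for the death ligand TRAIL, was higher (412, 355 and 342 against 103, 114 and 73.7 in controls; log2 change 1.94 ± 0.22 SE, limma adjusted p = 0.000177). Its neighbour *Tnfrsf26* was lower (147, 148 and 166 against 257, 229 and 201; log2 change −0.57 ± 0.19 SE, limma adjusted p = 0.0431), a call that was lost without any single library other than control 3 (limma adjusted p 0.0738 to 0.135). *Nap1l4*, a histone chaperone next to *Phlda2*, was not called, although its groups did not overlap (1062, 1090 and 1097 against 1323, 1373 and 1450; log2 change −0.35 ± 0.12 SE, limma adjusted p = 0.0522), and it passed with trimmed-mean (0.0410) or quantile (0.0252) scaling. *Osbpl5*, *Tnfrsf22* and *Dhcr7* did not pass either, with log2 changes of 0.72, 0.52 and −0.10; without control 1, *Osbpl5* was at 0.95 and passed (limma adjusted p = 0.0263).

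On the far side of *H19*, *Ctsd*, the lysosomal protease cathepsin D, was higher (4793, 5315 and 5142 in the labelled triple knockout libraries, 1800, 1713 and 2462 in controls; log2 change 1.37 ± 0.16 SE, limma adjusted p = 0.000187). *Tnni2*, a fast skeletal muscle troponin 136.3 kb from the *H19* start, was lower (11.1, 5.95 and 2.68 against 51.4, 73.6 and 35.5; log2 change −2.95 ± 0.51 SE, limma adjusted p = 0.00184). Of 10 skeletal muscle markers 7 were tested, and 0 were called by limma in either direction, also at an unadjusted p below 0.05; their summed normalized counts were 236, 563 and 305 in the labelled triple knockout libraries and 228, 331 and 224 in controls. *Ttn* made up 404 of the sum of 563 in labelled triple knockout 2. Without a call, the groups did not overlap for *Mylpf*, which was lower, and for *Myh8* and *Des*, which were higher. *Myod1*, which defines muscle progenitors, was at 0.886, 1.06 and 0 in the labelled triple knockout libraries and listed at 0 in all controls. The part of muscle cells in the *Tnni2* result was not tested.

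The partners of the growth factor encoded by *Igf2* changed in both directions. Of 18 listed genes of the insulin-like growth factor system, 17 were tested. The calls were 7 higher and 5 lower, and 5 were not called, where 20.5% of all genes tested were called higher and 15.3% lower. The median log2 change was 0.28, beside 0.01 over all genes. *Igf2r*, the receptor that clears the growth factor, rose to 5455 ± 532 in the labelled triple knockout libraries, against 2240 ± 296 in controls (log2 change 1.29 ± 0.14 SE, limma adjusted p = 0.000144). *Igf1r*, the signalling receptor, did not pass (8801 ± 1705 against 8007 ± 1326; limma adjusted p = 0.59). *Insr*, the insulin receptor, fell to 2272 ± 269, against 3487 ± 257 in controls (log2 change −0.62 ± 0.14 SE, limma adjusted p = 0.00628).

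Among the binding proteins, which hold the growth factor in the extracellular space, *Igfbp2* had the largest rise, to 10823 ± 1879 in the labelled triple knockout libraries against 921 ± 90.2 in controls (log2 change 3.54 ± 0.16 SE, limma adjusted p = 1.31e-06). *Igfbp4* rose to 2097 ± 43.0, against 691 ± 66.8 in controls. *Igfbp5* fell (247, 266 and 256 against 454, 571 and 2305; limma adjusted p = 0.0258), with control 3 far above the other controls, and the call was lost without any 1 of the labelled triple knockout libraries (limma adjusted p 0.0688 to 0.0787). *Grb10*, an imprinted adaptor that dampens receptor signalling, rose to 4631 ± 272, against 843 ± 297 in controls (log2 change 2.51 ± 0.22 SE, limma adjusted p = 3.77e-05). Of the RNA-binding proteins named for *Igf2* mRNA, *Igf2bp1* rose to 2252 ± 432, against 1135 ± 148 in controls. *Igf2bp2* rose to 2240 ± 108, against 1138 ± 37.3, and *Igf2bp3* fell to 1112 ± 55.7, against 2051 ± 121. The adaptor *Irs2*, *Igfbp7* and *Igf1* did not pass, with limma adjusted p of 0.353, 0.0602 and 0.813; *Igfbp7* passed as higher without control 3 (limma adjusted p = 0.00323) and *Igf1* as lower without control 1 (limma adjusted p = 0.0494).

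**Figure D4:**
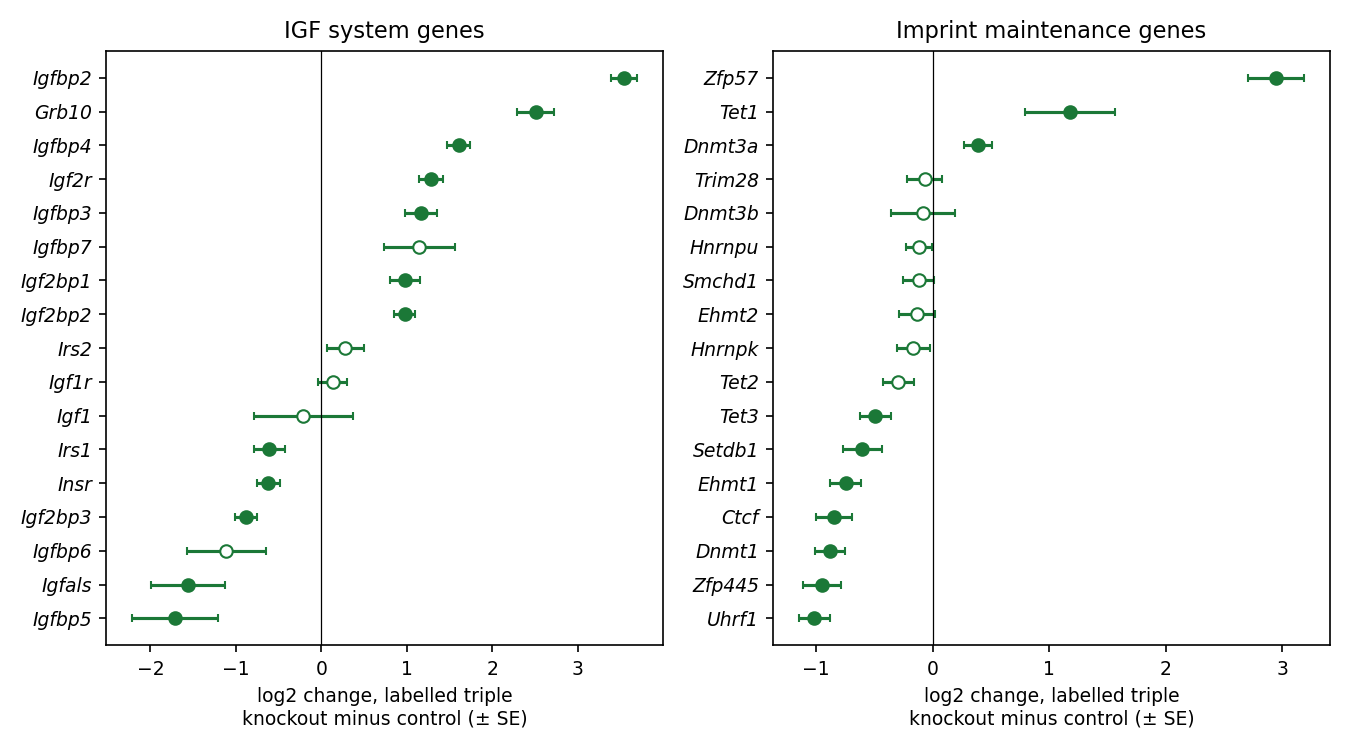
Log2 change (labelled triple knockout minus control, ± SE) of the tested genes of the insulin-like growth factor system, left, sorted by value. Right, the same for the imprint maintenance list, which includes the *Tet* genes. Filled points passed the test. *Igfbp2* and *Zfp57* have the highest values of their panels, at 3.54 and 2.94.

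Of 18 genes of a list called imprint maintenance, 17 were in the table and tested. The list holds genes that set or keep imprints or act at silenced alleles. It also holds *Tet1*, *Tet2* and *Tet3*, which act in DNA demethylation. The test called 3 higher, *Tet1* among them, and 7 lower, *Tet3* among them, and left 7 uncalled. The groups overlapped for *Tet1*. Its call was lost with no filter (limma adjusted p = 0.0577) and without labelled triple knockout 3 (0.148), among other alternatives. The *Tet3* call was lost without labelled triple knockout 1 (limma adjusted p = 0.0726) or 2 (0.0606), among others. Of all genes tested, 20.5% were called higher and 15.3% lower. The median log2 change of the list was −0.17, beside 0.01 over all genes. *Ctcf*, the insulator protein that binds the unmethylated control region upstream of *H19*, had 1162, 1305 and 1036 normalized counts in the labelled triple knockout libraries and 2187, 1806 and 2309 in controls (log2 change −0.85 ± 0.15 SE, limma adjusted p = 0.00221). *Dnmt1*, the maintenance DNA methyltransferase, fell to 2193 ± 159, against 4035 ± 364 in controls, and its partner *Uhrf1* to 563 ± 32.3, against 1137 ± 43.5. Both proteins act on newly replicated DNA.

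*Zfp57*, a zinc-finger protein that protects methylated imprints, rose, with 410, 623 and 573 in the labelled triple knockout libraries and 59.6, 87.5 and 59.1 in controls (log2 change 2.94 ± 0.24 SE, limma adjusted p = 2.98e-05). *Zfp445*, which shares that role, fell to 1099.9 ± 140, against 2133 ± 336 in controls. *Ehmt1*, a histone H3 lysine methyltransferase, fell to 787 ± 69.7, against 1318 ± 66.1. *Hnrnpk*, *Hnrnpu*, *Tet2* and *Smchd1* did not pass, with log2 changes between −0.29 and −0.12.

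The genes whose values were most like those of *H19* over the 6 libraries, by Pearson's r on the log2 scale, were *Xpc*, a DNA damage sensor, *Pcnt*, a centrosomal scaffold, and *Prkcq*, a protein kinase C (r = 0.999 for each, n = 6). Those most like *Igf2* were *Slc19a1*, a folate carrier (r = 0.996), *Naf1*, a ribonucleoprotein assembly factor (r = 0.994), and *Phf6*, a chromatin protein (r = 0.993). Predicted genes and clone names were left out, and all genes of a library share its depth and its group, which enters each r. *Prkcq* had 63.5, 61.8 and 73.9 in the labelled triple knockout libraries and 185, 170 and 125 in controls, and *Slc19a1* had 341, 340 and 411 against 249, 172 and 250.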

How the data were processed

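The authors deposited a scaled signal, called normalized counts in the file headers; raw counts were not used here. The submitters' processing notes name kallisto 0.42.5 and DESeq2, while annotation, strand setting and options were not given in the sources used here. The first tool divides reads between transcripts by estimation, so overlapping genes can exchange reads and a listed 0 can be a failed estimate. Only 25.9% to 42.6% of low values were whole multiples (within 0.01) of the value taken as 1 read. Whole reads thus could not be recovered, count models were left aside and no counting intervals are given. Coordinates are those of the table, of which 98.0% match GENCODE M21 (GRCm38).

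Values were analysed as log2(normalized count + 1) in genes with a mean of at least 10, with limma 3.58.1 in R 4.3.3 (trend, robust, no covariate, Benjamini-Hochberg over all 23006 genes, threshold 0.05). The procedure was tested on simulated data. Labels number replicates 1 to 3 in both groups; deviations of same-numbered libraries correlated at 0.06, −0.02 and 0.02, so the numbers were not taken as pairs. The genes and lists were chosen with earlier results of these data known. Named genes are the 9, the targets, *Cdkn1c*, up to 6 called and 4 abundant uncalled genes of the neighbour, growth factor and imprint lists, and the 3 most similar genes; other names (such as *Tnfrsf26*, *Trpm5*, *Insr* and *Igfbp5*) were added after their values were seen. The 15 alternatives changed the pseudocount (0.5, 5), the filter (none, mean 50), the scaling (trimmed mean, quantile) or the variance model (neither trend nor robust), added the replicate block, took out GC content and length, or left out each library.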

Additional observations from a re-analysis of the deposited data

How the results depend on the processing

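The log2 change of none of the 9 genes changed sign under any of the 15 alternatives run (14 for *Kcnq1* and *Ascl2*, which a mean of at least 50 leaves out). *H19*, *Igf2*, *Ascl2* and *Cd81* passed under each, with log2 changes of −0.99 to −0.51, 0.72 to 1.22, −3.61 to −2.44 and 1.57 to 1.96. *Phlda2* passed under 11 of 15 and *Tssc4* under 14 of 15. *Kcnq1ot1* passed under none (limma adjusted p 0.0769 to 0.754). Under quantile scaling the median over all genes shifted by −0.18 (log2); *H19* was then −0.51 and *Igf2* 1.14. The difference in the log2 ratio of *H19* to *Igf2*, −1.82, lay between −2.04 and −1.56 under both other pseudocounts and without each library.

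With a mean of at least 50, 1 of the 9 genes was lower, because *Ascl2* was not tested. Lower neighbours numbered 4 with quantile normalization and 1 to 2 when single libraries were left out. Lower growth factor system genes numbered 3 without trend or robust estimation and 2 to 5 when single libraries were left out (2 without labelled triple knockout 1, 3 without 2 or 3). Higher imprint maintenance genes numbered 1 without trend or robust estimation and 1 after removal of GC content and length, and 1 to 3 when single libraries were left out. The targeted genes had 0 lower after removal of GC content and length (*Eed* log2 change −0.40, limma adjusted p = 0.178; 0 lower also at an unadjusted p below 0.05) and 0 to 1 when single libraries were left out. Elsewhere the cause was not tested. With the replicate block, 4 of the 9 genes were higher and 2 lower, and no call among them changed. Whether same-numbered libraries are pairs is not known. *Kcnq1*, listed at 0 in controls 1 and 3, is limited by its low level.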

Other observations

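Another paternally expressed antisense RNA, *Airn* of the *Igf2r* locus on chromosome 17, was chosen after its values were seen. Unlike *Kcnq1ot1*, it was higher in the labelled triple knockout libraries. It had 859, 956 and 836 normalized counts in these libraries and 307, 269 and 253 in controls (log2 change 1.67 ± 0.16 SE, limma adjusted p = 5.86e-05). *Igf2r* itself was higher in the same libraries. Without a known strand setting, RNA of *Airn* and *Igf2r* cannot be told apart where the genes overlap. Near *H19*, the noncoding gene *Nctc1* fell below the mean of 10 needed for a test, with 1.83, 4.64 and 0 in the labelled triple knockout libraries and 13.2, 16.8 and 12.1 in controls, and *Ins2* and *Th*, between *Igf2* and *Ascl2*, were below 10 in every library.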
